A study of Mus musculus with 18 samples.

Results

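In mouse embryonic stem (ES) cells that lack Snf2h, the gene was put back in its normal form (wild-type add-back, 3 RNA libraries) or in a form that the culture protocol calls an ATPase mutant (mutant add-back, 2 libraries, numbered 1 and 3). These 5 libraries, chosen by their genotype labels out of 18 in the series, are compared here, and wild-type cells (n = 8) and the Snf2h ko (n = 5) serve as reference. All groups are of the 129S6/SvEvTac strain and were cultured in medium with serum and LIF, and both add-backs carry the ko. Gelatin was the growth surface, except that the ko and the mutant line spent at least their first passages after a thaw on mouse embryonic fibroblast (MEF) feeder cells. The labels do not name the mutation, how the returned gene is driven or how many clones each add-back represents, and give no statement on separate cultures. The p-values therefore measure only the spread between libraries within groups, which may be technical. That spread was estimated over all 18 libraries, so it includes the spread within the reference groups. The 5 libraries held 15.3 to 17.4 M counts. Of the 13 reference libraries, 6 had under 20 M counts as well and 7 had 22.9 to 37.0 M, and these depth classes also differed in the level of some genes, as given below for Nanog.

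Smarca5 encodes Snf2h, the motor of mammalian ISWI complexes, which use ATP to slide nucleosomes and set them at regular distances. It works with partners such as Baz1a (the ACF complex), Baz1b (WICH) and Rsf1, and Smarca1 encodes its paralog Snf2l. In ES cells it is known for the ordered nucleosome arrays beside sites bound by CTCF, the factor that, with cohesin, folds chromosomes into loops. A line with an ATPase mutant is meant to separate the remodelling activity from the presence of the protein.

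Smarca5 mRNA was back in both add-backs, but not to the same level. Levels are given as CPM, read counts scaled to a common library size with the TMM method, and were 83.8, 84.0 and 90.2 in the wild-type add-back and 48.4 and 68.6 in mutant add-back replicates 1 and 3. The groups did not overlap, and both lay between the ko (8.71 to 10.1 CPM) and wild type (139.7 to 215.5 CPM). The difference was 0.56 ± 0.17 on the log2 scale (SE, adjusted p = 0.018, edgeR's quasi-likelihood test with Benjamini-Hochberg adjustment over all genes, used throughout). The call was lost when wild-type add-back replicate 3 (0.52, adjusted p = 0.052) or mutant replicate 1 (0.34, adjusted p = 0.27) was left out. Without mutant replicate 3 the difference was 0.85. Smarca1 was also higher in the wild-type add-back, at 28.6, 26.4 and 30.5 CPM against 14.8 and 15.1 CPM (log2 difference 0.93 ± 0.15, adjusted p = 9.5e-05).

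Feeder growth and fibroblast transcripts moved with the groups. The summed level of 26 fibroblast genes was 73.7 to 77.5 CPM in the wild-type add-back and 213.8 and 275.3 CPM in the mutant add-back, beside 225.8 to 257.9 CPM in ko and 72.2 to 113.7 CPM in wild type. Of its 21 tested genes, 16 were lower and 1 higher in the wild-type add-back (median −1.95 on the log2 scale), where 18.4% and 18.6% of all tested genes were. Thbs1, thrombospondin 1, a secreted matrix protein, made up much of the sum, with 28.41, 24.97 and 28.44 CPM against 84.4 and 125 CPM (log2 difference −1.94 ± 0.20, adjusted p = 8.3e-07). The 10 genes of the list that best define fibroblasts summed to 4.92 to 5.62 CPM in the wild-type add-back and to 8.16 and 9.22 CPM in the mutant, while wild-type cells grown on gelatin had 7.39 to 13.1 CPM, most of it from Pdgfrb (3.66 to 10.25 CPM) and Mfap5 (2.64 to 4.39 CPM). Among these 10, Fap was at 0 counts in all 5 add-back libraries and Lum at 0 in both mutant libraries. Dcn, Ogn and Twist2 were too low to be tested. Col3a1, a main fibroblast collagen, was at 0.52 and 0.34 CPM in the mutant, against 2 counts over the wild-type add-back. Postn, the matrix protein periostin, had 0 counts in the wild-type add-back and 0.92 and 1.19 CPM in the mutant, at least a 16.5-fold difference. Mfap5, a microfibril protein, went the other way (log2 difference 0.89, adjusted p = 0.026), a call lost without either mutant library or replicate 1 of the wild-type add-back. The part of carried-over feeder cells in the results was not tested, and in bulk RNA fewer cells of a type and less RNA per cell cannot be told apart. The ES cell factors stood high in all 5 libraries: Pou5f1 was at 1455 to 1613 CPM in the wild-type add-back and at 2103 and 1806 CPM in the mutant (adjusted p = 0.21). Sox2 was at 537 to 589 against 466 and 490.3 CPM (adjusted p = 0.23). Both passed the test when only the libraries under 20 M counts were fitted (adjusted p = 5.4e-05 and 0.0011). The fibroblast and ES cell genes in this paragraph were picked after their values were seen.

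**Figure D1:**
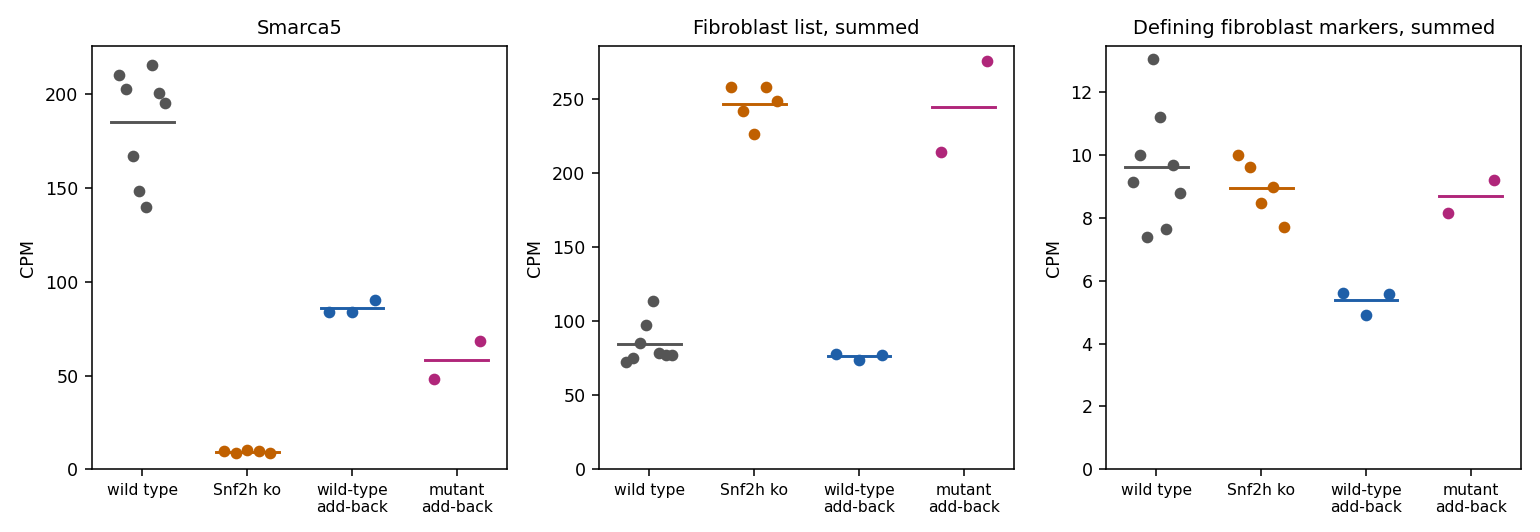
Smarca5 (left), the summed fibroblast list (middle) and its 10 defining markers (right) in CPM, with 1 point per library, groups on the horizontal axis and lines at group means. The mutant add-back has 48.4 and 68.6 CPM of Smarca5 against 83.8 to 90.2 CPM in the wild-type add-back, and its fibroblast sum of 213.8 and 275.3 CPM lies at the level of the ko.

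The form of Snf2h that was returned went with a difference over much of the transcriptome. Of 14901 genes tested, 5507 (37%) passed an adjusted p of 0.05. The wild-type add-back was higher for 2765 genes (18.6%) and lower for 2742 (18.4%). With at least a 2-fold difference, 1053 genes (7.07%) were higher and 1187 (7.97%) lower. The median over all genes was −0.0070 on the log2 scale. Fitted within the libraries under 20 M counts, the class that holds all 5 add-back libraries, the counts were 4846 higher and 4898 lower of 14488 genes. Counts within this class are given below for each list beside those of the fit over all 18 libraries, and are called the shallow-class counts. They are to be read against 4846 higher and 4898 lower of 14488 genes, a larger background than in the full fit. List counts of the full fit are to be read against its 18.6% higher and 18.4% lower. Those with the 5 add-back libraries alone are to be read against 4176 higher and 4335 lower of 14089 genes. With 1 add-back library left out, fewer genes passed over all than in the full fit. List counts from such fits are therefore not to be read against the shares of the full fit. Without mutant replicate 1, the library with the lower Smarca5 level, 1538 were higher and 1476 lower. In the same fit, 48 genes (0.322%) differed between the mutant add-back and ko and 238 (1.6%) between the wild-type add-back and wild type. Those comparisons share libraries with the one described, so their values are set side by side below only for single genes. Higher and lower below mean the wild-type add-back relative to the mutant.

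**Figure D2:**
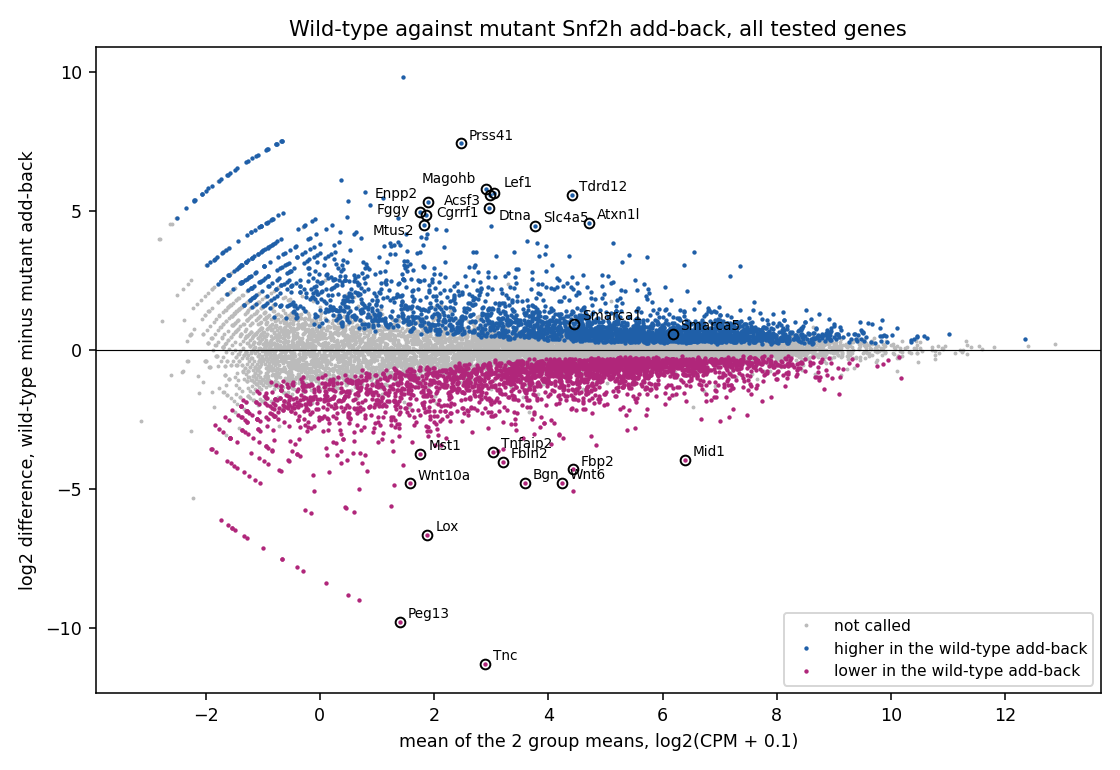
Log2 difference of the wild-type minus the mutant add-back against the mean level, log2(CPM + 0.1), with 1 point per tested gene. Blue points are the 2765 genes called higher and magenta points the 2742 called lower. Circles mark genes named in the text, from Prss41 at 7.42 to Tnc at −11.3, with Smarca5 at 0.56.

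A few of the genes that were near silent in one line and expressed in the other are shown by the 250 bases before their start site, as the sequence next to the start of their transcripts. The sequences are from RefSeq on GRCm38.p6, read 5′ to 3′ on the gene's strand, with capitals marking each CpG. Magohb (chr6:131293245-131293494, minus strand) and Cgrrf1 (chr14:46831884-46832133, plus strand) were higher, while Tnc (chr4:64047016-64047265, minus strand) and Fbp2 (chr13:62858401-62858650, minus strand) were lower.
Magohb: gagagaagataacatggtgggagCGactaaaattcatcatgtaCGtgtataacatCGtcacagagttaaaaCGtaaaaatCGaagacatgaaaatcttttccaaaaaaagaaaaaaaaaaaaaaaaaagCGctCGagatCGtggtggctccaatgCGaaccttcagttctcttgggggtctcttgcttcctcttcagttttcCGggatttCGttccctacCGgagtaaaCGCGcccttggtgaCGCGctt
Cgrrf1: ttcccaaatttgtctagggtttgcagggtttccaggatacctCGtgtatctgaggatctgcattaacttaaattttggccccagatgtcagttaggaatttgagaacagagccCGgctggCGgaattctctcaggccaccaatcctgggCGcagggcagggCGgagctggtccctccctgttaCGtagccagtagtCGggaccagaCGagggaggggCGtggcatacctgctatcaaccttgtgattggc
Tnc: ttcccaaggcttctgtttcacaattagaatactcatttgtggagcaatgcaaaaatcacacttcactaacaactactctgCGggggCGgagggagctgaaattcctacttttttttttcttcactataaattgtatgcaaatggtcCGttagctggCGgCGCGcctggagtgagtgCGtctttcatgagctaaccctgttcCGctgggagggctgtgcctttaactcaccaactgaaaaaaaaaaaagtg
Fbp2: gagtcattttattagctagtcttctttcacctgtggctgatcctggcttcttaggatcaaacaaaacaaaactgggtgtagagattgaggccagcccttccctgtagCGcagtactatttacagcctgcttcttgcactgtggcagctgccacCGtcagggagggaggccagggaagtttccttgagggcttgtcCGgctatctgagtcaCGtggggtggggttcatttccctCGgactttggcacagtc
The Magohb stretch held 16 CpG in 42.8% GC, the Cgrrf1 stretch 9 in 54.4%, the Tnc stretch 8 in 44.8% and the Fbp2 stretch 5 in 52.4%. Over 32851 promoters in the RefSeq table the median was 6 CpG and 52.4% GC, and 76.5% held at most 16 CpG, 62.2% at most 9, 59.7% at most 8 and 49.6% at most 5. The letters CCCTC, part of the CTCF motif, occurred on either strand in the Cgrrf1, Tnc and Fbp2 stretches and in 60.5% of all promoters. CACGTG, the E-box, occurred in the Fbp2 stretch and in 6.02% of all promoters. The other strings searched on both strands, none of which contains another, were AGGTGGC (5.08% of all promoters), CTTTGA (13.8%), TTCCCGCC (1.86%), TTTCGCGC (0.256%) and CGCATGCG (1.55%), and none of them was in these 4 windows.

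The 12 largest rises were genes that wild-type cells express and that were low in both the ko and the mutant add-back, at no more than 5.06 and 2.33 CPM in any library. They come from 2083 genes that passed the test, reached 5 CPM and had no overlap between the 5 libraries, where 36.1% of all tested genes were without overlap in this direction and 36.3% in the other. Prss41, a serine protease gene, had 12.1, 11.1 and 9.23 CPM in the wild-type add-back and 0.11 and 0 CPM in the mutant. That is 2 counts over both mutant libraries and a ratio of 189.7 (95% counting interval 52.2 to 1570). Magohb, a second gene for the Mago subunit of the exon junction complex, had 14.4, 16.3 and 12.7 CPM against 0.40 and 0.11 CPM (log2 difference 5.78 ± 0.42, adjusted p = 1.5e-08). In ko libraries Prss41 was at no more than 0.12 CPM and Magohb at no more than 0.41 CPM. Lef1, the HMG-box partner of beta-catenin in Wnt signalling, had 15.2, 15.0 and 17.8 CPM against 0.29 and 0.34 CPM (5.64 ± 0.59, adjusted p = 1.2e-06). Tdrd12, a Tudor-domain protein of the piRNA pathway, had 41.1, 41.6 and 41.6 CPM against 0.80 and 0.91 CPM (5.58 ± 0.45, adjusted p = 5.4e-08). Atxn1l, which encodes a partner of the repressor Capicua, was at 44.2 to 55.7 CPM against 1.90 and 2.33 CPM (4.56 ± 0.31, adjusted p = 7.2e-09). Slc4a5, a sodium bicarbonate cotransporter, had the smallest error of the 12, with 25.9, 28.0 and 23.7 CPM against 1.03 and 1.31 CPM (4.46 ± 0.18, adjusted p = 1.3e-11).

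The other 6 rises ran from 4.50 to 5.58 on the log2 scale. Acsf3, the mitochondrial malonyl-CoA synthetase, had 14.9 to 15.8 CPM against 0.40 and 0.23 CPM (5.58 ± 0.50). Enpp2, autotaxin, which makes lysophosphatidic acid, had 6.58 to 7.82 CPM against 0.17 and 0.17 CPM (5.31 ± 0.51). Dtna, a dystrobrevin of the dystrophin complex, had 13.9 to 15.6 CPM against 0.40 and 0.46 CPM (5.10 ± 0.62). Fggy, a carbohydrate kinase gene (4.94), Cgrrf1, a RING finger gene (4.87), and Mtus2, a microtubule-associated protein (4.50), had mutant levels of 0.17 to 0.40 CPM. All of these passed the test in each of the 14 alternative analyses. The wild-type add-back overlapped the range of wild-type cells in 11 of the 12 genes (91.9% of all tested genes did), with Mtus2 at 6.07 to 6.89 CPM below the 8.91 to 12.3 CPM of wild type. The mutant add-back overlapped the ko range in 7 of the 12 (72.1% of all tested genes did). In the other 5 it was below every ko library, as for Acsf3 (ko 1.30 to 4.35 CPM) and Cgrrf1 (ko 0.76 to 1.70 CPM). The mutant minus ko difference was −3.03 for Acsf3 (adjusted p = 0.0089) and −2.30 for Cgrrf1 (adjusted p = 0.021), whereas Tdrd12, Enpp2 and Dtna did not pass that test (adjusted p = 0.58, 0.18 and 0.22).

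The largest falls included 4 genes of secreted matrix proteins or enzymes and 2 Wnt ligand genes. Of 2057 eligible genes, the 12 largest were taken and 11 are described. Tnc, the matrix glycoprotein tenascin C, had 0 counts in all 3 wild-type add-back libraries and 10.8 and 18.5 CPM in the mutant, so it was at least 229-fold lower (3 counts over the group as the floor). In ko Tnc was at 15.2 to 23.7 CPM and in wild type at 0.065 to 0.69 CPM. Lox, lysyl oxidase, which crosslinks collagen, had 3 counts over the wild-type add-back and 5.28 and 8.93 CPM in the mutant, a ratio of 110.9 (95% counting interval 37.5 to 541.6). Bgn, the small proteoglycan biglycan, had 0.70, 0.80 and 1.01 CPM against 19.07 and 27.25 CPM (log2 difference −4.78 ± 0.37, adjusted p = 3.5e-08). Fbln2, the matrix protein fibulin 2, had 1.28, 1.29 and 0.54 CPM against 14.0 and 20.5 CPM (−4.04 ± 0.26, adjusted p = 5.1e-09). Lox, Bgn and Fbln2 are on the fibroblast list. For each of these 4 matrix genes mutant replicate 3 was above replicate 1. Replicate 3 also had the larger fibroblast sum (275.3 against 213.8 CPM), but that sum contains Lox, Bgn and Fbln2 and is no separate measure for them. Thbs1, also in the sum, was at 84.4 CPM in replicate 1 and 125 CPM in replicate 3. The genes of the list that best define fibroblasts summed to 8.16 CPM in replicate 1 and 9.22 CPM in replicate 3. Bgn and Fbln2 were also below wild type in the wild-type add-back (−1.81, adjusted p = 0.0079, and −1.30, adjusted p = 0.0071).

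The Wnt ligand genes Wnt6 and Wnt10a, neighbours on chromosome 1, were lower together. Wnt6 had 1.21, 1.35 and 1.35 CPM against 38.6 and 33.6 CPM (−4.78 ± 0.54, adjusted p = 3.1e-06), with 13.8 to 23.5 CPM in ko and 0.75 to 3.24 CPM in wild type. Wnt10a had 0.38, 0.12 and 0.067 CPM against 5.86 and 5.24 CPM (−4.81 ± 0.62, adjusted p = 1.0e-05). Mutant replicate 1 was the higher of the pair for both genes, a difference with no replicate. Wnt10a had 194 counts over both mutant libraries. The relation of these levels to Smarca5 or to fibroblast transcripts was not tested. The mutant also exceeded every ko library in Wnt6, Wnt10a and Fbp2, but those differences from ko did not pass the test (adjusted p = 0.30, 0.26 and 0.17). Fbp2, the muscle form of fructose-1,6-bisphosphatase, had 2.11, 2.03 and 2.02 CPM against 43.3 and 38.1 CPM (−4.31 ± 0.41, adjusted p = 3.5e-07). Mst1, a growth factor related to hepatocyte growth factor (−3.74), and Tnfaip2, a gene induced by TNF (−3.67), were at 5.63 and 6.60 CPM and at 14.1 and 15.9 CPM in the mutant, and at most 0.67 and 1.35 CPM in the wild-type add-back.

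Peg13 and Mid1 stood apart because neither the ko nor the mutant add-back was called higher than wild type, unlike in the other falls. As in Tnc, Lox, Bgn and Fbln2, the wild-type add-back was below every wild-type and ko library. Peg13, an imprinted noncoding RNA on chromosome 15, had 0 counts in the wild-type add-back against 5.00 and 5.18 CPM in the mutant, at least a 79.3-fold difference. Wild type (3.42 to 5.79 CPM) and ko (4.60 to 6.22 CPM) were at the level of the mutant. Mid1, an X-linked ubiquitin ligase gene, had 8.43, 12.2 and 9.84 CPM in the wild-type add-back and 141.8 and 174.8 CPM in the mutant (−3.96 ± 0.21, adjusted p = 3.9e-10). Wild type had 231.6 to 377.6 CPM and ko 153.7 to 195.4 CPM of Mid1, and the wild-type add-back was below wild type by −4.84 (adjusted p = 1.1e-11). The mutant (−0.88, adjusted p = 0.00048) and the ko (−0.75, adjusted p = 3.6e-05) were below wild type in Mid1 too. For these genes, as for all genes compared here, the line and the form of Snf2h cannot be told apart. Among the 12 falls, the wild-type add-back overlapped the wild-type range in 5 and the mutant the ko range in 8, against the same 91.9% and 72.1%.

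**Figure D3:**
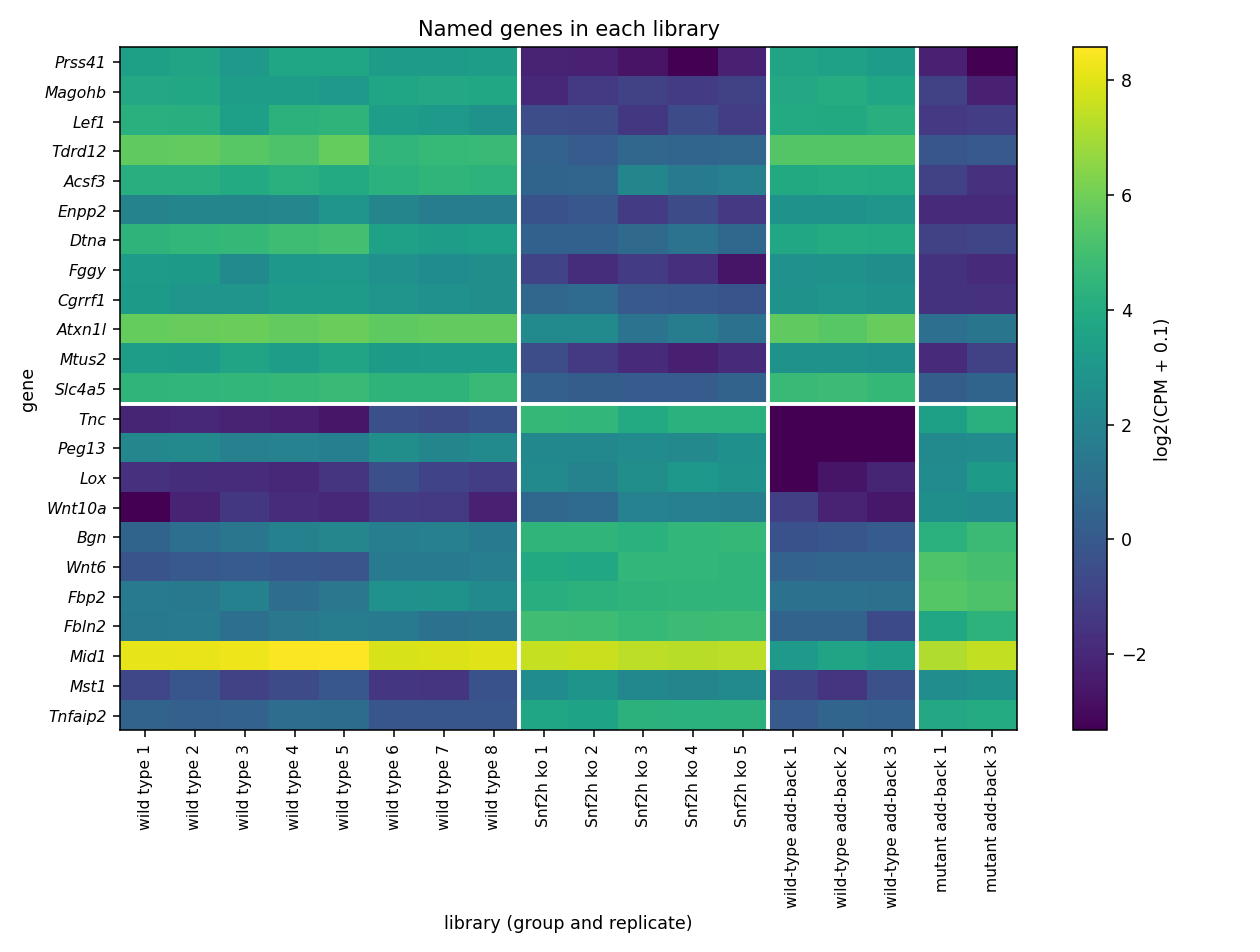
Level of 23 of the named genes, log2(CPM + 0.1) by colour, in each of the 18 libraries, with white lines between groups and between rises (top) and falls (bottom). For the rises the wild-type add-back overlaps the wild-type range in 11 of 12 genes and the mutant overlaps the ko range in 7. Peg13 and Mid1 are lowest in the wild-type add-back, with Peg13 at 0 and Mid1 at 8.43 to 12.2 CPM.

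Among genes of the remodelling machinery itself, those that passed the test were higher where the wild-type enzyme had been returned. Of 12 ISWI partner genes, 6 were higher and none lower (median 0.32, shallow-class counts 9 and 1). Cecr2, the partner of CERF, had 149, 146 and 169 CPM against 69.3 and 89.3 CPM (0.97 ± 0.13, adjusted p = 1.3e-05). Baz1a, the ACF1 subunit, had 61.6, 59.5 and 64.0 CPM against 31.2 and 35.8 CPM (0.88 ± 0.12, adjusted p = 1.6e-05). Bptf, of NURF, was at 286 to 365 against 175 and 239 CPM (0.63, adjusted p = 0.00048), and this call was lost when a trend with gene length was removed. Of 23 other remodelling ATPases, 15 were higher and none lower (median 0.52, shallow-class counts 19 and 1), with Chd1l at 56.4 to 60.0 against 32.0 and 31.4 CPM (0.87) and Ino80 at 111 to 128 against 50.9 and 70.4 CPM (0.96). Of 24 SWI/SNF subunits, 9 were higher and none lower (median 0.20, shallow-class counts 13 and 6), among them Arid2 (1.08), Smarcc1 (0.71) and Pbrm1 (0.78). Without mutant replicate 1 the median of the other remodelling ATPases was 0.425. With the length trend removed, ISWI partners went to 3 higher, the other ATPases to 11, and SWI/SNF to 8 higher and 1 lower. At an unadjusted p under 0.05, 0 of the ISWI partners and other ATPases and 2 of the SWI/SNF subunits were lower, and DESeq2 called 0 lower in each list.

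CTCF and cohesin genes that passed the test were higher as well. Of 17 tested, 9 were higher and none lower (median 0.40, shallow-class counts 12 and 0), also none at an unadjusted p under 0.05 and none by DESeq2. Stag3, the cohesin subunit of meiotic chromosomes, had 106, 105 and 112 CPM against 48.4 and 49.9 CPM (1.13 ± 0.11, adjusted p = 8.3e-07). Pds5a and Pds5b, regulators of cohesin, were higher by 0.77 and 0.58, and Wapl, which releases cohesin, by 0.50. Ctcf itself was at 211, 212 and 218 CPM against 163 and 172 CPM (0.35, adjusted p = 0.048), a call lost in 7 of the 14 alternative analyses. Its germ cell paralog Ctcfl had 0.70, 0.37 and 0.47 CPM against 0 counts in both mutant libraries, at least a 5.99-fold difference. Ctcf and Ctcfl were picked after their values were seen. With the length trend removed, 5 of the 17 were higher.

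Of 19 genes of the formative and primed state, 11 (57.9%) were higher and 2 lower (median 0.58, shallow-class counts 13 and 5), and without mutant replicate 1 it was 7 and 2. Otx2, the homeobox factor that starts the exit from naive pluripotency, had 64.6, 63.8 and 67.7 CPM against 15.1 and 15.3 CPM (2.10 ± 0.20, adjusted p = 4.2e-07). Grhl2, which opens enhancers of epithelial genes, had 63.3, 56.4 and 68.5 CPM against 14.2 and 14.0 CPM (2.15 ± 0.24, adjusted p = 2.7e-06). Zic2, a zinc finger factor of the primed epiblast, had 10.7, 12.4 and 11.1 CPM against 1.21 and 1.71 CPM (2.96 ± 0.46, adjusted p = 7.5e-05). These 3 were taken for their small adjusted p, so their lack of overlap between the lines is no further result. Over all tested genes 36.1% had no overlap in this direction. Of 26 naive and core genes, 6 (23.1%) were higher and 4 (15.4%) lower, near the 18.6% and 18.4% of all genes (median 0.18, shallow-class counts 14 and 8), and without either mutant library the lower ones numbered 2. Klf2, a naive factor, was higher at 183, 203 and 181 CPM against 65.0 and 64.1 CPM (1.55 ± 0.16, adjusted p = 1.2e-06), as was the nuclear receptor Nr5a2 (0.90). Tbx3, a T-box factor of the naive state, was lower at 74.7, 80.2 and 78.9 CPM against 208 and 217 CPM (−1.45 ± 0.12, adjusted p = 7.8e-08). Nanog was lower at 508 to 518 against 693 and 748 CPM (−0.49, adjusted p = 0.033), a call lost in 6 of the 14 alternatives. In ko, Nanog was at 446 and 464 CPM in the 2 deeper libraries and at 717 to 752 CPM in the 3 under 20 M counts. Of 12 genes of the 2-cell-like state, 0 passed the test, 0 had an unadjusted p under 0.05 and 0 were called by DESeq2 (median 0.26). Its shallow-class counts were 2 higher and 0 lower of 10.

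Germ cell genes were mostly higher where they passed the test. Of 22 genes of the piRNA pathway, which silences transposons through small RNAs in the germ line, 14 were higher (63.6%, against 18.6% of all genes) and 1 lower (median 0.93, shallow-class counts 15 and 2). Rnf17, a Tudor-domain gene, had 143, 143 and 157 CPM against 18.4 and 17.3 CPM (3.05 ± 0.23, adjusted p = 3.2e-08). Gpat2, a mitochondrial protein needed for piRNA production, had 12.8, 11.3 and 10.9 CPM against 0.92 and 1.08 CPM (3.54 ± 0.38, adjusted p = 1.8e-06). Average ko levels of Tdrd12, Gpat2 and Rnf17 were 1.28, 0.56 and 18.4 CPM and the mutant had 0.80 and 0.91, 0.92 and 1.08, and 18.4 and 17.3 CPM. The exception was Mael, a piRNA pathway gene that was lower at 20.6, 20.0 and 19.2 CPM against 75.7 and 69.8 CPM (−1.87 ± 0.14, adjusted p = 3.2e-08). Of 34 meiosis and germ cell genes, 14 were higher and 3 lower (median 0.55, shallow-class counts 17 and 6 of 33), and 9 and 3 without mutant replicate 1. Tex19.1, a germ cell gene that restrains retrotransposons, had 77.6, 80.0 and 76.4 CPM against 13.9 and 13.4 CPM (2.51 ± 0.29, adjusted p = 4.1e-06). Rbm44, a germ cell RNA-binding protein, had 5.04 to 5.39 against 0.34 and 0.23 CPM (4.15). Zcwpw1, a histone methylation reader used in meiosis, was lower at 54.1 to 57.7 against 156 and 145 CPM (−1.42). With the length trend removed the 2 lists stood at 13 higher and 1 lower and at 15 higher and 3 lower.

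Among lineage genes, lower calls outnumbered higher ones. Of 15 primitive streak and mesoderm genes, 7 were lower and none higher (median −1.19, shallow-class counts 0 and 10 of 14). The smallest adjusted p was that of Tbx20, a heart T-box factor, with 2.23, 1.60 and 1.62 CPM against 6.83 and 7.74 CPM (4.00-fold lower, adjusted p = 0.00019). Of 15 tested Hox genes, which pattern the body axis and are held off by Polycomb in ES cells, 8 were lower and none higher (median −1.87, shallow-class counts 12 lower and 0 higher of 13). Hoxb9 had 0.83, 0.43 and 0.61 CPM against 4.88 and 3.98 CPM (−2.82 ± 0.30, adjusted p = 1.2e-06), and Hoxd13 was lower by −1.87. All Hox levels were low, since 24 of 39 were not tested. In the mesoderm and Hox lists, 0 genes were higher also at an unadjusted p under 0.05 and by DESeq2. Of 11 neuroectoderm genes, 5 were lower (median −0.65, shallow-class counts 9 lower and 1 higher), with Sox1, an early neural factor, at 2.171, 2.58 and 2.29 against 8.44 and 11.4 CPM (−2.07, adjusted p = 6.5e-06). That count fell to 2 when either replicate 1 was left out, and to 3 without any other add-back library. Of 17 trophectoderm genes, 2 were higher and 5 lower (median −0.61, shallow-class counts 4 and 11), and leaving out 1 library gave 0 to 2 higher and 2 to 4 lower, least without mutant replicate 1. The keratin gene Krt8, at 66.9, 68.4 and 59.2 against 188 and 166 CPM (−1.45, adjusted p = 0.0013), had the smallest adjusted p of that list. Of 17 endoderm genes, 2 (11.8%) were lower, under the 18.4% of all genes, but 16 were lower in the shallow class and 15 with the add-back libraries alone. The 2 were Amn (−3.04) and Sparc (−1.03), and Sparc lost its call in 9 of the 14 alternatives. Of the mesoderm genes, Twist1 (−1.95) is also on the fibroblast list, whose sum was 73.7 to 77.5 CPM against 213.8 and 275.3 CPM, and the part of feeder cells here was not tested.

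Signalling lists had shares of calls near those of all genes (18.6% higher and 18.4% lower), with large differences in single members. Of 22 Wnt pathway genes, 5 (22.7%) were higher and 6 (27.3%) lower (median −0.029, shallow-class counts 8 and 9), and without mutant replicate 1 it was 3 and 3. Lef1, a nuclear effector, was higher whereas the ligand Wnt6 was lower, as given above, and Znrf3 and Lgr4, which tune the level of Wnt receptors, were higher by 0.83 and 0.49. Of 26 genes of Nodal, Lefty and BMP signalling, 4 (15.4%) were higher and 6 (23.1%) lower (median −0.10, shallow-class counts 10 and 11 of 25), with 2 and 4 without mutant replicate 1 and 3 and 3 without mutant replicate 3. Lefty1, a secreted inhibitor of Nodal, was higher at 65.8, 64.8 and 65.8 CPM against 4.25 and 4.89 CPM (3.84 ± 0.51, adjusted p = 1.6e-05). Lefty2 was at 61.9, 58.1 and 58.0 against 18.4 and 18.3 CPM (1.69 ± 0.38, adjusted p = 0.0018). Inhba, the activin A subunit, had 0 counts in the wild-type add-back against 1.03 and 1.08 CPM, at least a 16.5-fold difference. Smad6, an inhibitor of BMP signals, was lower at 6.07 to 7.93 against 14.0 and 17.1 CPM (−1.13).

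**Figure D4:**
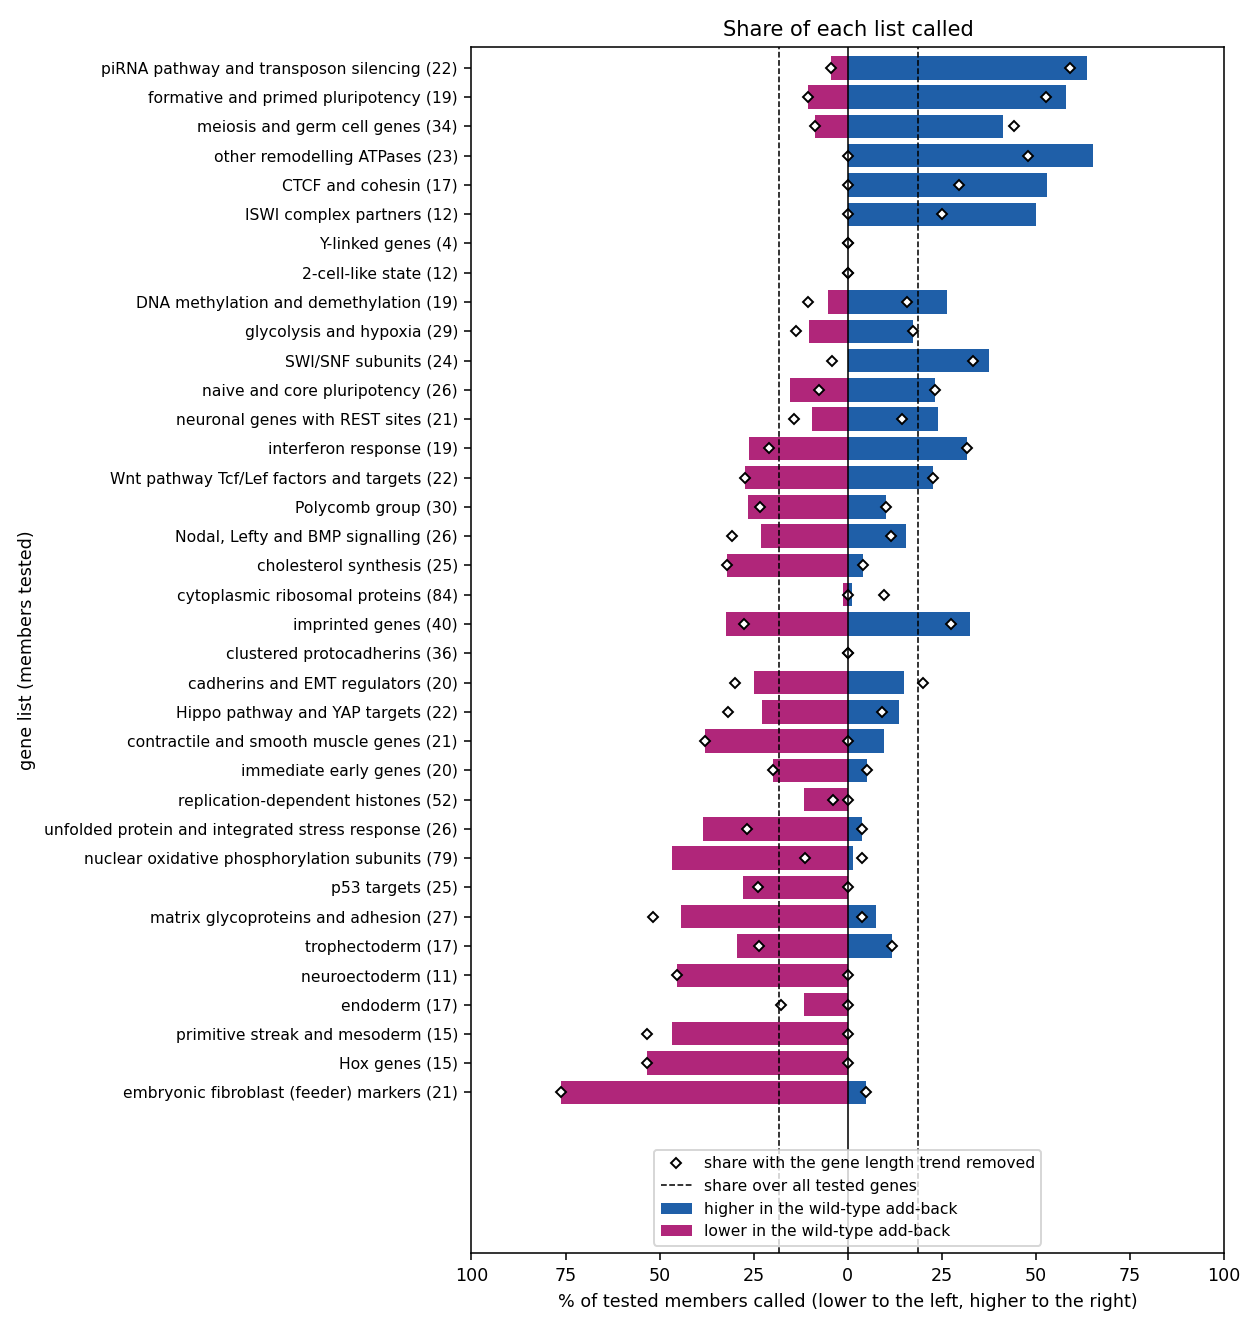
Share of the tested members of each of the 36 lists that was called higher (right, blue) or lower (left, magenta), with lists ordered by their median difference. Dashed lines give the shares over all tested genes (18.6% and 18.4%), and diamonds the shares with the gene length trend removed. Fibroblast markers stand at 16 of 21 lower and piRNA genes at 14 of 22 higher, and the oxidative phosphorylation list changes most when the trend is removed.

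Matrix and contractile genes were more often called lower than higher, as were the fibroblast transcripts described above (213.8 and 275.3 CPM in the mutant against 73.7 to 77.5 CPM). Of 27 matrix and adhesion genes, 2 were higher and 12 lower (median −0.41, shallow-class counts 4 and 18), and the higher ones numbered 1 to 3 when 1 library was left out. Beyond Tnc, the integrin Itgb5 was at 33.4 to 35.3 against 64.5 and 60.4 CPM (−0.87, adjusted p = 1.4e-05). Of 21 contractile genes, 2 were higher and 8 lower (median −0.29, shallow-class counts 5 and 12). Acta2, smooth muscle actin, had 5.49, 5.72 and 5.39 CPM against 39.9 and 55.5 CPM (−3.11 ± 0.45, adjusted p = 3.3e-05). Cald1, caldesmon, had 85.2, 81.9 and 84.2 CPM against 210.4 and 220.2 CPM (−1.36 ± 0.12, adjusted p = 2.6e-07). In ko Acta2 averaged 21.7 CPM, below both mutant libraries. The contractile counts became 0 and 4 without mutant replicate 1, and 0 and 6 without wild-type add-back replicate 1 or 3. Other fibroblast genes went both ways or did not pass the test: Pdgfrb, Fbn1 and Mmp2 differed by 0.076, 0.14 and 0.16 (adjusted p = 0.89, 0.73 and 0.78). Prrx1, a mesenchymal homeobox factor, had 2 counts over the wild-type add-back against 2.07 and 2.96 CPM, a ratio of 58.8 (95% counting interval 15.8 to 493.2).

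Of 20 cadherins and regulators of the epithelial to mesenchymal transition, 3 were higher and 5 lower (median −0.20, shallow-class counts 8 and 8), with 3 lower without mutant replicate 1 or replicate 2 or 3 of the wild-type add-back. E-cadherin, Cdh1, was at 560, 545 and 591 against 415 and 385 CPM (0.50 ± 0.09, adjusted p = 0.00030). Zeb1, a repressor of epithelial genes, was at 6.58 to 7.68 against 16.9 and 19.5 CPM (−1.39, adjusted p = 1.6e-05). Vim, the mesenchymal intermediate filament vimentin, was at 97.6, 94.3 and 97.5 against 252 and 232 CPM (−1.33 ± 0.20, adjusted p = 4.3e-05). The shares called were 15% higher and 25% lower in this list and 13.6% and 22.7% in the Hippo list below. Over all tested genes they were 18.6% and 18.4%. Of 22 Hippo pathway genes, 3 were higher and 5 lower (median −0.24, shallow-class counts 6 and 12), with 1 higher without mutant replicate 1 and 2 lower without mutant replicate 3.

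Imprinted genes were called in both directions alike. Of 40 tested, 13 were higher and 13 lower (median −0.17, shallow-class counts 17 and 19 of 39), with 7 and 7 without mutant replicate 1 and 12 and 8 without mutant replicate 3. Magel2, in the Prader-Willi region, had 1.92, 2.95 and 2.56 CPM against 3 counts over the mutant, a ratio of 28.9 (95% counting interval 9.66 to 142.3). Ube3a, the ubiquitin ligase of Angelman syndrome, was at 110.3, 100.4 and 113 against 53.8 and 62.5 CPM (0.89). Kcnq1, a potassium channel gene, went the other way with 0.26, 0.12 and 0.067 against 3.33 and 3.02 CPM (−4.35 ± 0.44, adjusted p = 7.7e-07). Of 19 genes of DNA methylation and demethylation, 5 were higher and 1 lower (median 0.25, shallow-class counts 11 and 4). Mbd1, a reader of methylated CpG, had 36.3, 37.0 and 39.9 CPM against 6.03 and 8.31 CPM (2.40 ± 0.21, adjusted p = 1.6e-07), and Tet1, which oxidises methylcytosine, was higher by 0.98. Dnmt3a was higher by 0.98 too (adjusted p = 0.023), a call lost in 4 of the 14 alternatives. The higher count of that list was 3 without mutant replicate 1 or replicate 1 of the wild-type add-back and 2 without wild-type add-back replicate 3. Of 30 Polycomb genes, 3 (10%) were higher and 8 (26.7%) lower, where 18.6% and 18.4% of all genes were. The median was −0.093 and the shallow-class counts were 7 and 12. Phc1, a subunit of the Polycomb repressive complex, was at 630.5 to 697 against 352 and 382 CPM (0.84, adjusted p = 0.00050). The lower count of the list was 5 without wild-type add-back replicate 1 and 4 without mutant replicate 1.

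Stress genes that passed the test were mostly lower, but not all of these lists stood far from the 18.4% of all genes called lower. The lower share was 28% of p53 targets, 38.5% of the unfolded protein and integrated stress genes and 20% of immediate early genes. Of 25 p53 targets, 7 were lower and 0 higher (median −0.36, shallow-class counts 15 lower and 2 higher), with 1 higher at an unadjusted p under 0.05 and 1 by DESeq2. Pmaip1, the death factor Noxa, had 66.5, 63.8 and 64.5 CPM against 185 and 177 CPM (−1.48 ± 0.12, adjusted p = 4.3e-08). Perp, a p53 target of cell adhesion, was at 22.8 to 25.7 against 60.5 and 58.1 CPM (−1.28, adjusted p = 4.1e-06). Of 26 genes of the unfolded protein and integrated stress responses, 1 was higher and 10 lower (median −0.36, shallow-class counts 1 and 17 of 25), and the higher one was not called when replicate 1 or 2 of the wild-type add-back was left out. Atf4, the factor at the centre of the integrated stress response, had 235, 240.3 and 218 CPM against 466 and 385 CPM (−0.88 ± 0.11, adjusted p = 5.5e-06). Its relative Atf5 was at 13.3 to 14.8 against 40.9 and 38.5 CPM (−1.49), and the target Asns, asparagine synthetase, at 261 to 267.4 against 443 and 392 CPM (−0.67). Of 20 immediate early genes, 1 was higher (0 without either mutant library) and 4 lower (median −0.31, shallow-class counts 4 and 11), with Jund at 41.6 to 62.7 against 128 and 125 CPM (−1.29).

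Of 79 nuclear genes for oxidative phosphorylation subunits, 37 were lower and 1 higher (median −0.36, shallow-class counts 65 lower and 1 higher of 78), such as Ndufa8, a complex I subunit, at 50.3 to 55.2 against 101 and 81.0 CPM (−0.78, adjusted p = 0.00080). These genes are short, and with the gene length trend removed 9 were lower and 3 higher (median −0.11). Without mutant replicate 1 it was 7 lower, and without wild-type add-back replicate 3 it was 17. Of 84 cytoplasmic ribosomal protein genes, also short, 1 was higher and 1 lower (median −0.13), and 8 higher and 0 lower with the trend removed (median 0.12). In the shallow class 25 were lower and 4 higher, where 4898 and 4846 of all 14488 genes were. With the add-back libraries alone 11 were lower, where 4335 of 14089 genes were. Both lower counts are smaller shares than those of all genes. Without mutant replicate 3, 9 were lower. Of 29 glycolysis and hypoxia genes, 5 (17.2%) were higher and 3 (10.3%) lower, where 18.6% and 18.4% of all genes were. The median was 0.21 and the shallow-class counts were 17 and 6. Pdk1, a kinase that inhibits pyruvate dehydrogenase, was at 316, 290.3 and 319.6 against 151 and 142 CPM (1.07 ± 0.16, adjusted p = 4.5e-05). The counts were 3 and 1 without mutant replicate 1, 2 and 0 without mutant replicate 3 and 5 and 1 without wild-type add-back replicate 3. Of 25 cholesterol synthesis genes, 1 was higher and 8 lower (median −0.11, shallow-class counts 2 and 11), with Pmvk, a mevalonate pathway kinase, at 49.2 to 52.0 against 126 and 101 CPM (−1.17, adjusted p = 2.4e-05). Without mutant replicate 1, 3 were lower.

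Of 36 clustered protocadherins, whose choice of promoter depends on CTCF, 0 passed the test, 0 had an unadjusted p under 0.05 and 0 were called by DESeq2 (median −0.19). In the shallow class 22 of the 36 were lower, where 4898 of all 14488 genes were. With the add-back libraries alone 8 of 22 were lower, near the share of all genes (4335 of 14089). Leaving out wild-type add-back replicate 3 or either mutant library gave 1 higher. Of 52 histone genes of the kind expressed in S phase, 6 (11.5%) were lower and 0 higher, where 18.4% and 18.6% of all genes were. The median was −0.34. Shallow-class counts were 14 lower and 1 higher of 49, where 4898 and 4846 of all 14488 genes were. At an unadjusted p under 0.05 and by DESeq2, 0 were higher as well. Without replicate 1 of the wild-type add-back 1 was lower. The median was −0.455 without mutant replicate 1 and −0.0878 without mutant replicate 3. Levels were low, since 8 of the 52 averaged at least 1 CPM in wild type, and the libraries are of polyadenylated RNA. Of 21 neuronal genes with sites for the repressor REST, 5 (23.8%) were higher and 2 (9.52%) lower, where 18.6% and 18.4% of all genes were. The median was 0.17 and the shallow-class counts were 11 and 7. Syt4, a synaptotagmin, was at 3.69 to 4.45 against 0.52 and 0.23 CPM (3.45, adjusted p = 9.1e-06), and Sez6 was lower by −2.01. The higher count was 3 without mutant replicate 3 or replicate 1 of the wild-type add-back and 2 without mutant replicate 1. Of 19 interferon response genes, 6 were higher and 5 lower (median −0.025, shallow-class counts 7 and 7 of 18), and 3 and 4 without mutant replicate 1. Ifit2 was at 2.40 to 3.13 against 0.17 and 0.11 CPM (4.18), and the antigen processing gene Psmb9 at 2.46 to 2.83 against 8.04 and 7.28 CPM (−1.50).

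Gene length moved with the difference. Sorted into 5 equal bins by exonic length, the shortest genes (48 to 1723 bases) had a median difference of −0.20 and the longest (5634 to 107966 bases) of 0.23. The share called higher went from 8.55% in the shortest bin to 32.1% in the longest, and the share called lower from 24.6% to 10.8%. The same bins gave 0.20 and −0.22 for the mutant add-back minus ko, and 0.036 and −0.044 for the wild-type add-back minus wild type. By library, the longest minus the shortest bin was −0.52 in mutant replicate 1 and −0.14 in replicate 3, against 0.065, −0.036 and 0.24 in the wild-type add-back. RNA quality and library preparation were not tested as the source of this trend. With the trend removed, an analysis chosen after seeing the data, 2503 genes were higher and 2682 lower. Of the genes at least 2-fold different before, 1024 of 1053 higher and 1132 of 1187 lower were also called the same way. The 12 largest rises and 12 largest falls kept their direction and call.

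**Figure D5:**
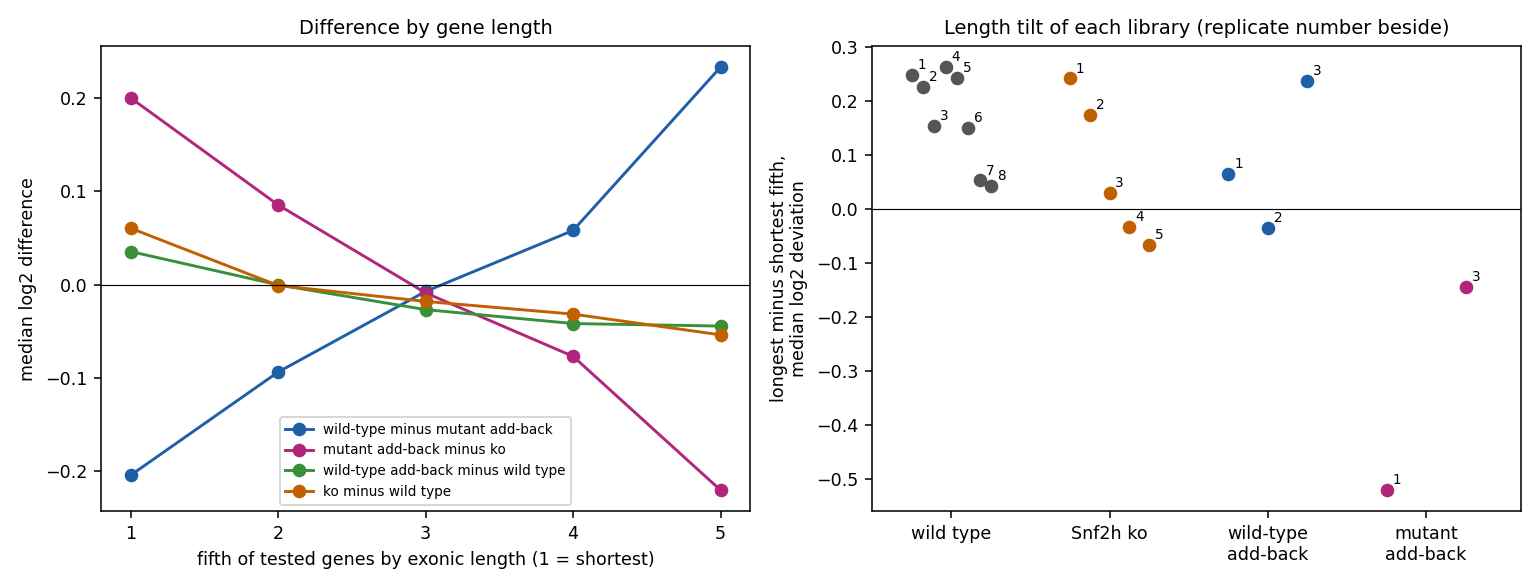
Left, median log2 difference of 4 comparisons for tested genes in 5 bins of exonic length, from shortest to longest. Right, the median deviation of the longest bin minus that of the shortest in each library, with replicate numbers beside the points. The wild-type minus mutant difference goes from −0.20 to 0.23, and mutant replicate 1 stands lowest at −0.52.

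The 2 mutant libraries differ in Smarca5 level (48.4 and 68.6 CPM), a difference with no replicate. Of the genes called higher by at least 2-fold, 592 of 1053 (56.2%) lay nearer to the wild-type add-back in the library with more Smarca5. Of those called lower, 641 of 1187 (54%) did so. The share over all tested genes was not computed. The libraries also differ in length trend (−0.52 in replicate 1 and −0.14 in replicate 3), which cannot be told apart from the Smarca5 level here. Among 10772 genes averaging at least 5 CPM in the mutant, 5 were at least 2-fold higher in replicate 3 than in replicate 1 and 0 were lower. Among the named genes the mutant libraries were close in some, such as Otx2 at 15.1 and 15.3 CPM and Rnf17 at 18.4 and 17.3 CPM. They were apart in others, such as Tnc at 10.8 and 18.5 CPM and Lox at 5.28 and 8.93 CPM. Magohb, at 0.40 and 0.11 CPM, had 9 counts over both libraries, too few to tell them apart. Whether a mutant level equal to that of the wild-type add-back would change these values was not tested.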

How the data were processed

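RNA was measured in 18 libraries, and the values used are raw counts of reads on genes, deposited by the authors in a single table. Per the labels, RNA was purified on RNeasy columns and polyadenylated RNA went into stranded TruSeq libraries. Per the submitters' processing notes, bcl2fastq 2.17 and STAR were used with mm10 (GRCm38). Not given in the sources used here are the STAR version, how reads were assigned to genes, whether strand was used and which annotation. The table also gives an exonic length per gene, deposited by the authors, which was used for the length bins and the length trend.

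Of 24116 genes, edgeR's filterByExpr (count minimum 10) left 14901. All 18 libraries were fitted in 1 model with 1 mean per group (edgeR 4.0.16, R 4.3.3, limma 3.58.1, TMM scaling, robust quasi-likelihood test, two-sided), since the mutant add-back has 2 libraries, and p-values were adjusted by Benjamini-Hochberg over all genes. The common biological coefficient of variation was 0.169. Counting intervals and the floor of 3 counts over a group cover counting error only. Replicates differed by more than sampling noise, with a chi-square per gene of 2.03 to 6.35 in the wild-type add-back and 13.2 in the mutant. In the reference groups, whose spread enters the same fit, pairs ran from 1.45 to 65.3 in wild type and from 1.79 to 53.3 in ko. Between ko libraries above and under 20 M counts it was 47.7 to 53.3.

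Smarca5 and Smarca1 were always named. Other genes needed an adjusted p under 0.05, at least 5 CPM on average in the higher group, no overlap of the 5 libraries and an established symbol (no predicted gene or clone name). The 12 largest rises and 12 largest falls were taken, plus up to 4 members per list with the smallest adjusted p. Part of what it names is not reported here, and genes named outside it are marked in the text. The comparison, the 36 gene lists and the rules were chosen with earlier results of these data known. No set test was run, and lists are described by counts and medians. The medians were the same with genes at 0 in a group set to their bound.

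Gene positions are from RefSeq on GRCm38.p6 (14882 of 14901 genes matched). Promoters in the RefSeq table matched 75.9% of the genes higher by at least 2-fold and 74.3% of those lower, too few to compare motif shares between these sets, so none are given. Alternatives were DESeq2 1.42.0, other scalings and filters, fewer libraries, a replicate block, leaving out each add-back library and removing the length trend. The length trend was added after seeing the data.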

Additional observations from a re-analysis of the deposited data

Results flagged for a closer look

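In wild-type replicate 5, Enpp2 was at 7.36 CPM, apart from the other wild-type libraries by more than Dixon's 95% limit. It was the only one of 52 groups of 4 to 10 libraries examined for the named genes that did so, and chance gives about 1 in 20. The wild-type add-back had 6.58 to 7.82 CPM of Enpp2, near that library.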

How the results depend on the processing

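The 24 genes taken as the largest rises and falls kept their direction and call in all 336 alternative values. Counts of called genes depended on which libraries set the spread. The counts in the report were 2765 higher and 2742 lower. With the 5 add-back libraries alone they were 4176 and 4335, and with libraries under 20 M counts 4846 and 4898. With a replicate block in the 5 add-back libraries they were 4526 and 4701. The add-backs share replicate numbers 1 and 3, but the labels do not pair them, and the replicate 1 minus 3 difference correlated by 0.143 between the lines over 14901 genes. Leaving out 1 library gave 1538 to 2440 higher and 1476 to 2244 lower, both lowest without mutant replicate 1. Library size alone, in place of TMM, gave 44.2% of calls higher. Smarca5 ranged from 0.339 to 0.845 when 1 library was left out, and lost its call at 0.52 and 0.339. Lists with at least 50% of tested members called in 1 direction numbered 7 of 36. They numbered 19 with the add-backs alone, 25 under 20 M counts, 25 with the replicate block and 2 to 6 when 1 library was left out. These settings leave out libraries of the other groups, and the cause was not tested further. With the replicate block 15 of 17 endoderm genes, 21 of 22 protocadherins and 44 of 84 ribosomal protein genes were lower. Over all genes in that fit, 4701 of 14089 were. The block changed Pou5f1 (−0.38) and Sox2 (0.21), which are not called in the full fit, to called. With 2 mutant libraries, the spread within that group rests on 1 difference, and when either is left out the other is assumed to vary like the other groups.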

Other observations

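On chromosome X, 31.1% of 543 tested genes were higher in the wild-type add-back and 14.2% lower, with a median of 0.23 on the log2 scale. Autosome medians ran from −0.065 to 0.0996. Against wild-type cells, the X median was −0.22 in the mutant add-back and 0.0082 where normal Snf2h was returned.

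The Y-linked genes Ddx3y and Eif2s3y were low in all 5 add-back libraries, at 0.19 to 0.81 and 0.34 to 0.63 CPM, and averaged 0.83 and 2.77 CPM in ko against 48.5 and 68.4 CPM in wild type. Of 9 tested genes on chromosome Y, 5 were lower in the wild-type add-back and 0 higher (median −4.00). The 5 were Rbmy, a germ cell RNA-binding protein gene, at 0.13 to 0.18 CPM against 4.36 and 4.72 CPM, and 4 predicted genes at no more than 3.30 CPM, which may share reads as near-identical copies. Rbmy averaged 0.17 CPM in wild type and 3.10 CPM in ko. Of the 4 tested genes of the Y-linked list that includes Ddx3y, 0 passed edgeR's test between the add-backs, 1 had an unadjusted p under 0.05 and 0 were called by DESeq2.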
